A study of Homo sapiens with 3 samples.

Results

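The Polycomb repressive complex genes described here are 10 subunit genes of Polycomb repressive complexes 1 and 2 (PRC1 and PRC2). Array probes were taken as theirs where the platform annotation gives one of these symbols, current or older. In this way, 9 of the 10 genes were found, with 10 probes among the 47293 of the array: EZH2 has 2 probes and each of EZH1, EED, SUZ12, JARID2, BMI1, PHC1, CBX2 and CBX7 has 1. No probe named for RNF2, a ubiquitin ligase of PRC1, was found, so its expression is not analysed here. The named probes of the array cover 16225 genes.

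The samples are 3 undifferentiated human embryonic stem (ES) cell lines, ES01 (replicate 3), BG03 (replicate 2) and H9 (replicate 1), which the labels place in 1 group. All were grown on irradiated mouse embryo fibroblasts in serum replacement medium with FGF2, and total RNA of each was read on 1 Illumina bead array. No line carries a treatment or an engineered allele according to the labels. The study's design set human ES cells beside mouse pluripotent cells, which are not analysed here, so values are compared between the 3 human lines. With 1 array per line there is no test between lines: differences are given by size, beside the share of all genes that differ as much, and the spread between arrays joins what comes from the line, its culture and the array.

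Polycomb proteins keep developmental genes silent. In PRC2, the methyltransferase EZH2 or its paralog EZH1 works with EED and SUZ12 to methylate lysine 27 of histone H3. PRC1 binds that mark through a chromobox (CBX) protein and, through RNF2 with BMI1 or a related protein, attaches ubiquitin to histone H2A. In ES cells both complexes occupy many genes of later lineages, which are held silent but can still be switched on.

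The sequences around the annotated starts of 4 members are shown: the catalytic paralogs EZH2 and EZH1, and BMI1 and CBX7, the members that differed most between lines. They are RefSeq windows on GRCh38.p14 of 300 bases, 250 before the start and 50 after it, read in the direction of the gene, so that base 251 is the start. Capitals mark 3 kinds of word searched on both strands with overlaps allowed: E2F words (TTTCCCGC, TTTGGCGC, TTTCGCGC or TTTGCCGC), the GC-box word CCCGCCC and CCAAT, which appear as their reverse complements where they lie on the other strand. The EZH2 window is chr7:148884242-148884541 (minus strand), the EZH1 window chr17:42744991-42745290 (minus strand), the BMI1 window chr10:22320849-22321148 (plus strand) and the CBX7 window chr22:39152631-39152930 (minus strand).
EZH2: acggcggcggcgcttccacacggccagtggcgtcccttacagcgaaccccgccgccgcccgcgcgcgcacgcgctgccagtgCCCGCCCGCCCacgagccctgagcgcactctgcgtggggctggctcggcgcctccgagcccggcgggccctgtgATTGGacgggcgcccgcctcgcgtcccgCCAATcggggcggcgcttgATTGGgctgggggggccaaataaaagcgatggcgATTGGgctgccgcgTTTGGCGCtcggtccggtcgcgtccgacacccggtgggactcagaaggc
EZH1: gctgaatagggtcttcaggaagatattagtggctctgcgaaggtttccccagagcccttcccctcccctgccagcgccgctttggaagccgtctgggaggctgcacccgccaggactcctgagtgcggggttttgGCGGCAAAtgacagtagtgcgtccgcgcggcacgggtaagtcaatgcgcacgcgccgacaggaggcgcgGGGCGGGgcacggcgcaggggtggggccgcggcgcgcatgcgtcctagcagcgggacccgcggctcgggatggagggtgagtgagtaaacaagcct
BMI1: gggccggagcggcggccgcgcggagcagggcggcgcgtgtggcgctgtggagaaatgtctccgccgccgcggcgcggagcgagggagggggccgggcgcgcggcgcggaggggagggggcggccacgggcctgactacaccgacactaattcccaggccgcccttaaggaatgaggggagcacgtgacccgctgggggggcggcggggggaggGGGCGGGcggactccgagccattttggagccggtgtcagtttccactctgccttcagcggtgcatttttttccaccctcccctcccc
CBX7: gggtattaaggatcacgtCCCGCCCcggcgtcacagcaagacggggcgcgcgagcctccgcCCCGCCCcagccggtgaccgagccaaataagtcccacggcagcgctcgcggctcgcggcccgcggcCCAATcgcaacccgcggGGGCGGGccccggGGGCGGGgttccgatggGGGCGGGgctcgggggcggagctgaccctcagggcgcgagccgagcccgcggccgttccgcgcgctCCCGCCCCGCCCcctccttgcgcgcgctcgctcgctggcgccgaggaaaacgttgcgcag

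An E2F word stood in the windows of EZH2 (bases 252 to 259), EZH1 (136 to 143) and SUZ12 (62 to 69), that is in 3 of 13 RefSeq windows. These windows cover 9 of the 10 genes, RNF2 included and CBX2 not. Over all genes, 3.31% of 35116 windows held such a word. EZH2, BMI1, JARID2 and PHC1 have a second window each; that of EZH2 held no E2F word and no CCAAT. The GC-box word stood in 9 of the 13 windows, against 33.1% of all windows, and CCAAT in 5 of 13, against 34.6%. The CBX7 window held 7 copies of the GC-box word, some of them overlapping, and the EZH2 window shown 4 copies of CCAAT. CpG dinucleotides numbered 50 in the window of CBX7, 46 in that of EZH2, 36 in that of BMI1 and 30 in that of EZH1, against a median of 14 over all windows. Another BMI1 window had 65, more than 99.97% of all windows, and 1 PHC1 window had 10. These matches describe the letters only.

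Intensities below are after quantile normalization and are always given in the order ES01, BG03 and H9. A probe counted as above background where it exceeded the 95th percentile of 215 olfactory receptor probes on its array, which was 13.3, 12.6 and 11.2 units. Every SD is of log2 values of the 3 arrays (n = 3). Probes differ in how brightly they bind, so levels are compared between lines for 1 probe and not between genes.

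Signal above background in every line was found for 8 of the 9 measured Polycomb genes, against 59.8% of all genes. CBX2 was above it in none. EZH1, EZH2, EED, SUZ12, JARID2, BMI1 and PHC1 each differed by at most 1.67-fold between any 2 lines, and CBX7 by 2.01-fold between its lowest line, ES01, and its highest, H9. The median log2 SD was 0.17 over the 8 members and 0.18 over the 9695 genes above background in all lines. Without ES01 these medians were 0.07 and 0.13, without BG03 0.21 and 0.16, and without H9 0.16 and 0.15, so the members' spread rested largely on ES01. RNA of whole cultures was measured, so fewer cells with a transcript and less of it per cell cannot be told apart.

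**Figure D1:**
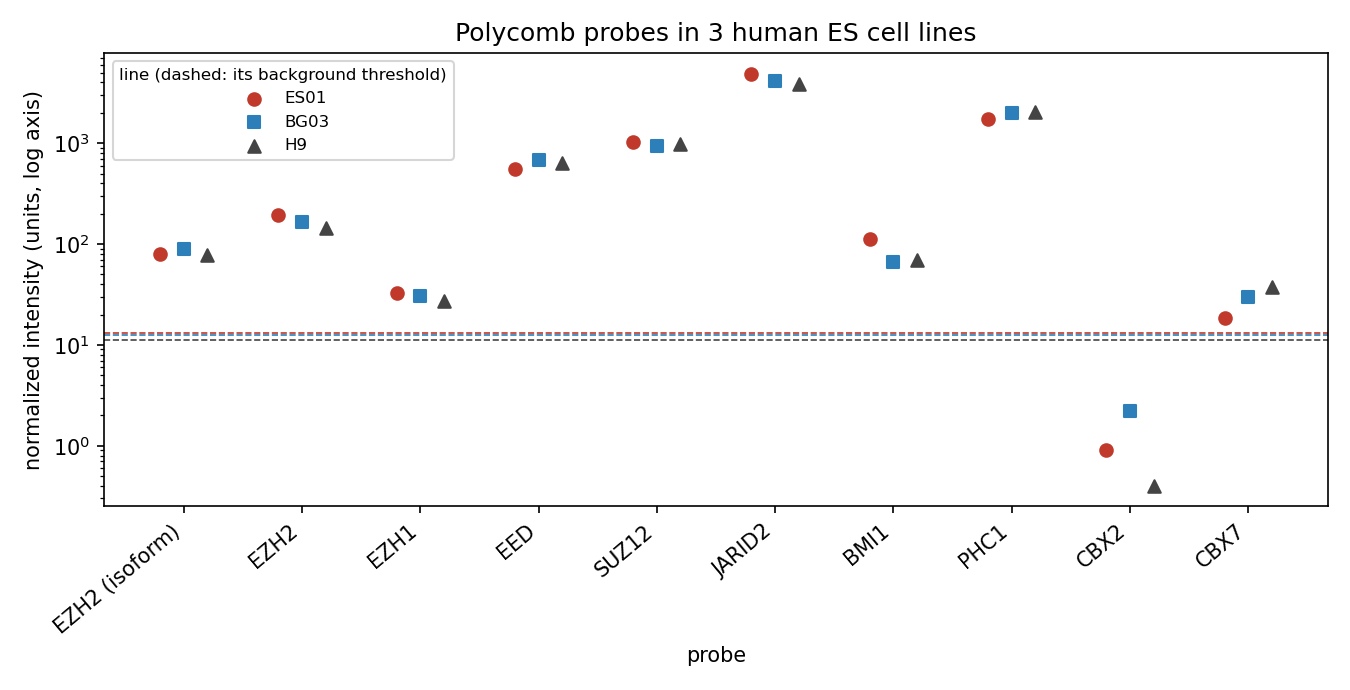
Normalized intensity (log axis) of each Polycomb probe in ES01, BG03 and H9, 1 point per array, with each line's background threshold dashed. The CBX2 probe lies under the thresholds in every line, and CBX7 and EZH1 lie nearest above them.

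The catalytic subunit of PRC2 was read by a pair of probes for EZH2. The probe whose identifier ends in A, Illumina's mark for a design common to all isoforms, measured 193, 166 and 145 units (log2 SD 0.21). ES01 was the highest line and H9 the lowest, with ES01 1.33-fold over H9 and 1.16-fold over BG03. The probe ending in I, the mark for a single isoform, measured 80.4, 90.2 and 78.1 units (log2 SD 0.11), with BG03 highest. The probes thus gave log2 differences of 0.41 and 0.04 between ES01 and H9 and of 0.22 and -0.17 between ES01 and BG03, so that the order of ES01 and BG03 depended on the probe. Between BG03 and H9 they gave 0.19 and 0.21.

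EZH1, the paralog that in many tissues is kept in cells that no longer divide, measured 32.3, 30.2 and 27.2 units (log2 SD 0.12). It was dim, at 2.44, 2.40 and 2.43 times the thresholds. The largest difference, ES01 over H9, was 1.19-fold. At a stricter threshold, the 99th percentile of the same background probes (21.4, 30.8 and 25.2 units), EZH1 in BG03 was no longer above background.

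Neither PRC2 core subunit differed as much as 1.5-fold between lines. SUZ12, which holds the complex together, measured 1026, 935 and 974 units and had the smallest log2 SD of the members, 0.07; 88.0% of genes above background in all lines had an SD at least as large. EED, which binds the methylated histone and stimulates the enzyme, measured 553, 683 and 629 units (log2 SD 0.15), with ES01 lowest at 0.81 of BG03 and 0.88 of H9, and 59.0% of genes had an SD at least as large. ES01 was thus the lowest line for EED and the highest for SUZ12.

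JARID2, an accessory subunit that helps to recruit PRC2 in ES cells, measured 4890.4, 4094 and 3844 units (log2 SD 0.18). ES01 stood 1.27-fold over H9 and 1.19-fold over BG03. Its probe was brighter than those of 98.3% of the genes, which describes the probe and not the number of transcripts.

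In PRC1, PHC1, a polyhomeotic protein through which complexes can join into larger assemblies, measured 1729.8, 1986 and 2021 units (log2 SD 0.12). ES01 was lowest, at 0.86 of H9, and BG03 and H9 differed by 0.02 on the log2 scale. BMI1, a RING finger partner of RNF2 known for silencing the CDKN2A locus, measured 111, 66.9 and 69.2 units (log2 SD 0.41). It was higher in ES01, 1.67-fold over BG03 and 1.61-fold over H9, while BG03 and H9 lay within 0.05 on the log2 scale. Of the genes above background in all lines, 13.2% had an SD at least as large as that of BMI1.

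The chromobox readers CBX7 and CBX2 each have 1 probe. CBX7, which binds methylated lysine 27 of histone H3 and is the main CBX protein of PRC1 in mouse ES cells, measured 18.6, 29.8 and 37.4 units (log2 SD 0.51). It was lowest in ES01 and highest in H9, with log2 differences of -1.01 for ES01 over H9, -0.68 for ES01 over BG03 and -0.33 for BG03 over H9. It stood only 1.40 times above the threshold in ES01, 2.37 times in BG03 and 3.33 times in H9. An SD at least as large was found for 7.39% of genes. At the 99th percentile background CBX7 was above background in H9 alone, and the difference between ES01 and H9, with ES01 set to its threshold, was -0.80. CBX2, which can compact chromatin as well as bind the mark, measured 0.90, 2.20 and 0.40 units and was below background throughout. Its 1 probe was not checked for reading the transcript, so this does not show that CBX2 is absent.

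Differences of this size occurred across the array. CBX7 was the 1 member that differed at least 2-fold between any 2 lines, which 8.29% of the 11004 genes above background in some line did. Between ES01 and H9, 1 of 8 members differed at least 2-fold, against 5.14% of genes. Between ES01 and BG03 it was 0 of 8, against 3.75%, and between BG03 and H9 0 of 8, against 3.24%. Dim genes differ more often: of 1043 genes whose mean log2 intensity was within 0.5 of that of CBX7, 11% differed at least 2-fold between ES01 and H9 (a comparison chosen after the values were seen). At 1.5-fold, BMI1 and CBX7 differed between ES01 and BG03 (2 of 8 members, against 13.5% of genes) and between ES01 and H9 (2 of 8, against 16.3%), and no member differed between BG03 and H9 (0 of 8, against 11.9%). In both ES01 pairs BMI1 was higher in ES01 and CBX7 lower.

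**Figure D2:**
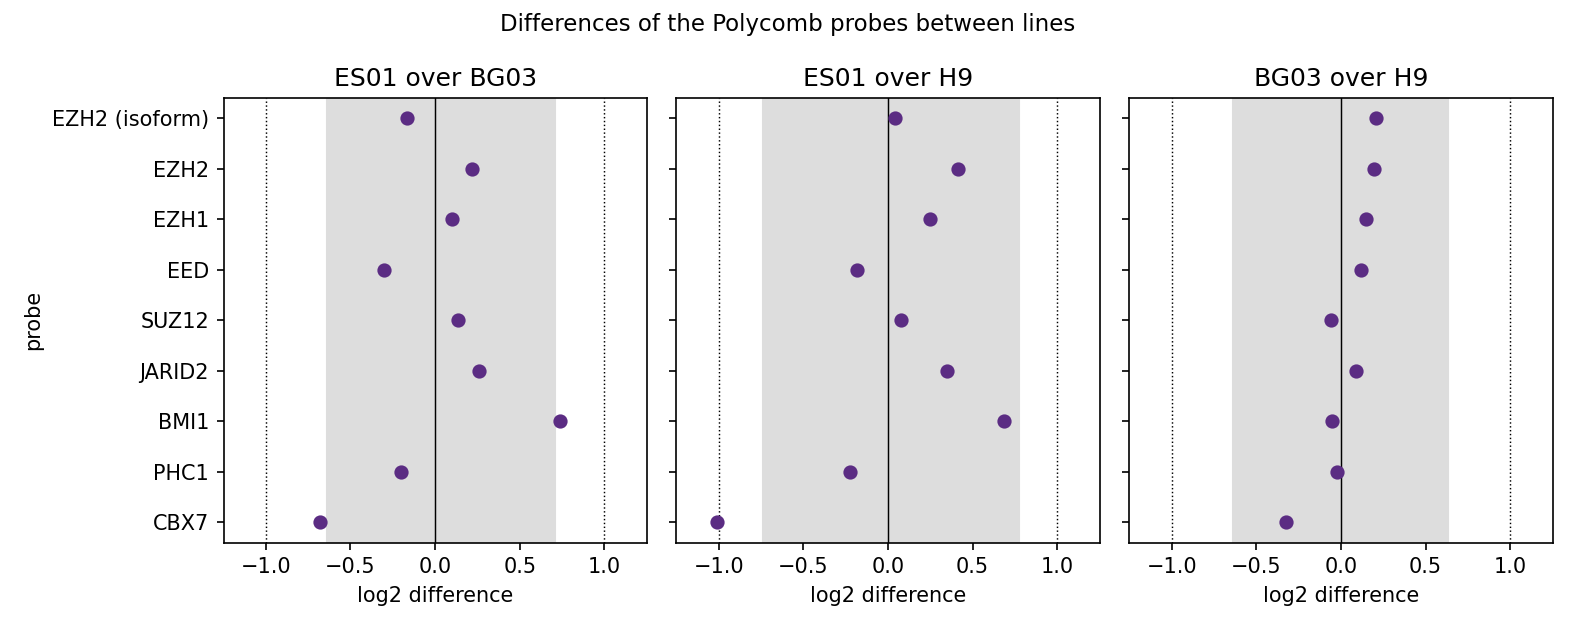
Log2 difference between lines of each Polycomb probe above background, a panel for each pair with the first-named line over the other. Grey spans the 5th to 95th percentile of all genes above background in some line and dotted lines mark 2-fold. CBX7 lies left of the grey band in both ES01 panels, past 2-fold in ES01 over H9. BMI1 lies just right of the band in ES01 over BG03 and inside it in ES01 over H9, and in the BG03 over H9 panel all points lie inside it.

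As a set the members had no common direction. ES01 was higher than BG03 for 5 of 8 and higher than H9 for 5 of 8, against 47.6% and 50.9% of genes above background in the pair. Median log2 differences were 0.12 and 0.16, against -0.01 and 0.01 for all genes. The first count takes EZH2 from its brighter probe, and the isoform probe gave -0.17 for ES01 over BG03. BG03 was higher than H9 for 4 of 8, against 52.8% of such genes (median 0.03, all genes 0.03). Under each of the 3 other scalings it was higher for 6 of 8 (medians 0.12 to 0.13, all genes 0.07 to 0.09), where SUZ12 and PHC1 changed sign. Scaling the arrays to the same median in place of quantile normalization moved the medians of all genes to -0.34 and -0.27 for the ES01 pairs. There ES01 was higher than BG03 for 1 of 8 members and higher than H9 for 3 of 8 (EZH2, EZH1, SUZ12 and JARID2 turned in the first pair, EZH1 and SUZ12 in the second), but 5 of 8 still lay above the median of all genes in both pairs. CBX7 stayed lower and BMI1 higher in ES01 under every scaling that was run, but with same-median scaling the log2 differences of BMI1 were 0.40 over BG03 and 0.35 over H9, under 1.5-fold.

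**Figure D3:**
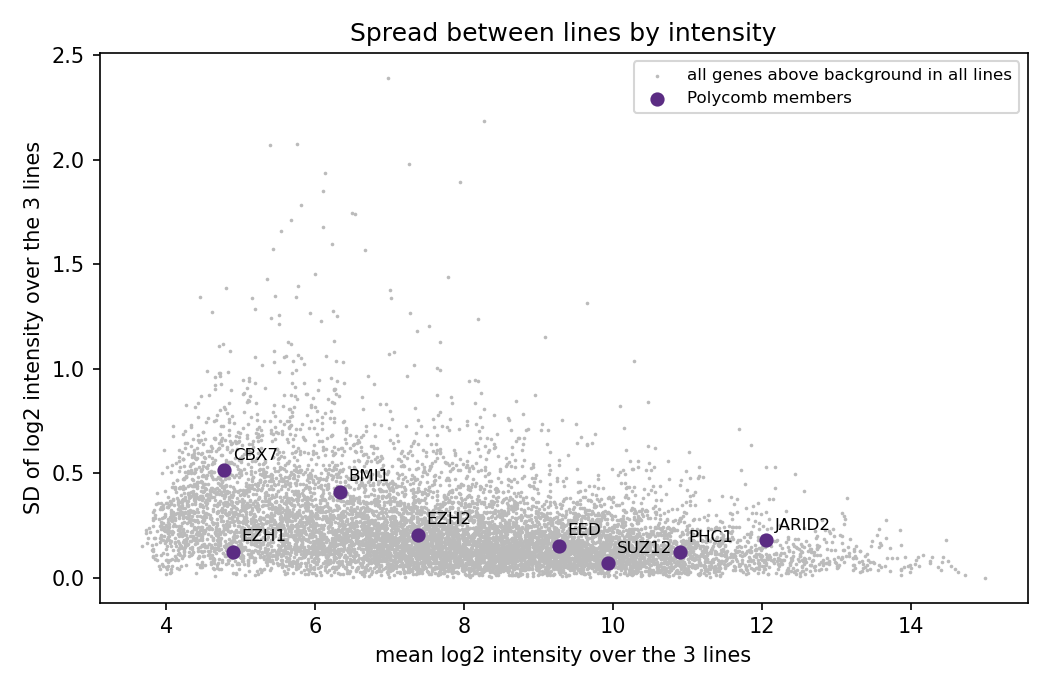
SD of log2 intensity over the 3 lines against mean log2 intensity, with 1 grey point for each gene above background in all lines and the 8 Polycomb members above background in purple. CBX7 (0.51) and BMI1 (0.41) have the highest SDs of the members and SUZ12 (0.07) the lowest.

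The genes whose values ran most like those of CBX7 over the 3 lines, by Euclidean distance of centred log2 values, were SAP18 (36.2, 58.2 and 73.0 units, distance 0.00204), FANCL (181, 294 and 360 units, distance 0.0232) and ZNF250 (29.5, 46.9 and 60.6 units, distance 0.0314). Of 9687 genes, 253 lay within 0.25, so with 3 lines such a pattern is shared by many genes.

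Beyond the members, 38 further Polycomb genes and opposing enzymes were listed. Of 32 measured, 24 passed the background threshold on every array, where 59.8% of genes did, and 5 on none. Their median log2 SD was 0.16. Differences of at least 2-fold were found for 1 of the 27 above background in some line, against 8.29% of genes.

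Of the other PRC2 genes, 6 of 7 were above background in all lines. The histone-binding subunit RBBP4 measured 710.2, 708 and 1110.3 units, with H9 highest, and its paralog RBBP7 measured 1495, 2172 and 1765 units, with BG03 highest. The accessory subunits were more even: AEBP2 measured 336.5, 340.3 and 322 units (log2 SD 0.04) and MTF2, which links PRC2 to CpG-rich DNA, 3045, 2827 and 3018 units (log2 SD 0.06). EZHIP, an inhibitor of EZH2, was the 1 gene of this list below background on every array, and is named after its values were seen.

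Of the other canonical PRC1 genes, 5 of 7 were above background in all lines. RING1, the paralog of RNF2, measured 1047, 1239 and 1175 units (log2 SD 0.12), and PCGF2, the paralog of BMI1, 1257, 1534 and 1409 units (log2 SD 0.14). ES01 was the lowest line for PCGF2, at a log2 difference of -0.29 from BG03, and the highest for BMI1. The chromobox gene CBX6 measured 313, 364 and 308 units. PHC2, a paralog of PHC1, was highest in H9 (25.5, 25.7 and 50.3 units), just under 2-fold over the other lines. The rest of its 3 probes were below background in every line, except 1 that passed in H9 (16.3 units).

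In the variant PRC1 list, whose complexes hold RYBP or YAF2 in place of a CBX protein, 8 of 11 genes passed on every array. PCGF1 measured 112, 131 and 116 units and PCGF6, a subunit of the complex that represses germ cell genes, 312, 323 and 418 units. PCGF3 and PCGF5 stayed below background on every array. The co-repressor gene BCORL1 differed at least 2-fold: it measured 49.9, 127 and 98.1 units, 2.54-fold lower in ES01 than in BG03 and 1.97-fold lower than in H9.

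Enzymes that remove the Polycomb marks, with their partners, were above background in all lines for 5 of 7. KDM6A, a demethylase of lysine 27 of histone H3, measured 298, 260 and 231.0 units. ASXL1 and ASXL2, partners of the H2A deubiquitinase BAP1, measured 110.1, 95.9 and 109 units and 217, 208 and 188 units. KDM6B, another demethylase, passed the threshold in BG03 alone (6.07, 15.1 and 9.87 units). ES01 was higher than H9 for 6 of the 6 that were above background in either line, with a median log2 difference of 0.33, where 50.9% of such genes were higher over the whole array. Relative to the median difference of all genes, 5 or 6 of the 6 were higher in ES01 under each scaling that was run, though the plain count was 3 of 6 with same-median scaling, which lowers ES01 for all genes alike. For ES01 over BG03 the count was 5 of 7, against 47.6% of genes, and for BG03 over H9 5 of 7, against 52.8%. Of the 6, ASXL1 differed by only 0.02 between ES01 and H9. ASXL3, named after its values were seen, lay near the thresholds (14.3, 14.8 and 11.6 units). Uneven counts were not particular to this list. ES01 was higher than BG03 for 0 of 5 other canonical and 1 of 9 variant PRC1 genes. It was higher than H9 for 2 of 5 and 4 of 9. None of the 7 opposing enzymes above background in some line differed 2-fold, against 8.29% of genes.

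Genes that textbooks give as Polycomb targets were mostly below background. Of 32 measured, 4 passed the threshold on every array (12.5%, where 59.8% of genes did), 5 in 1 or 2 lines and 23 in none (against 32.2% of genes). CDKN2A, a cell cycle inhibitor locus, measured 9.17, 9.87 and 5.63 units and the kidney regulator PAX2 8.23, 3.43 and 6.83 units, all below background. PAX3, a neural crest and muscle regulator, lay near the thresholds by the brighter of its 2 probes (10.97, 14.1 and 11.7 units). Its other probe was below background in every line (-0.63, -0.97 and 1.53 units). With the mean of the probes of a gene, 24 target genes passed in no line. With taste receptor and keratin-associated probes as background, 20 passed in no line and 5 on every array. At the 99th percentile of the olfactory receptor probes, 26 passed in no line and 3 on every array. The eye and brain regulator PAX6 measured 24.2 units in ES01 and 14.8 in BG03 and was not above background in H9. With H9 set to its threshold, it was 2.16-fold higher in ES01 than in H9. OLIG2, a motor neuron and oligodendrocyte regulator, was not above background in ES01 and measured 52.8 units in BG03 and 38.8 in H9. With ES01 set to its threshold, it was 3.98-fold and 2.93-fold lower in ES01. HAND1, a regulator of heart and trophoblast, was highest in BG03 (15.7, 34.7 and 17.7 units), with ES01 2.21-fold lower than BG03. In all, 3 of the 9 target genes above background in some line differed at least 2-fold, against 8.29% of genes. At the 99th percentile thresholds (21.4, 30.8 and 25.2 units), PAX6 was above background in ES01 alone and HAND1 in BG03 alone. With values set to those thresholds, neither differed 2-fold. ISL1, GATA4 and SOX17, named after their values were seen, were the others that passed on every array. Binding of Polycomb proteins to these genes was not measured.

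**Figure D4:**
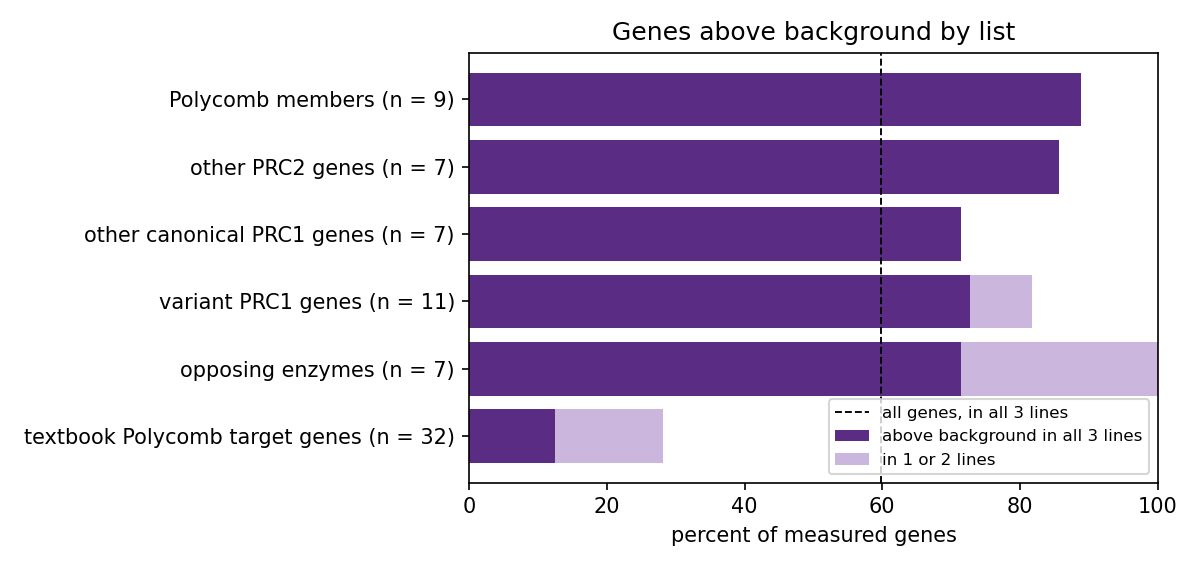
Percent of measured genes above background in all 3 lines (dark bars) and in 1 or 2 lines (light bars), by list, with the share of all genes above background in all lines dashed (59.8%). Of the lists plotted, the members (as 1 bar), the other Polycomb genes and the opposing enzymes lie to the right of the dashed line and the target list, at 12.5%, to its left.

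Of 8 listed markers of ES cells, 7 were found by their listed symbols. All 7 were above background in all lines, POU5F1, NANOG, LIN28A and DNMT3B among them. ZFP42 alone differed at least 2-fold (247, 780 and 364 units), 1 of 7, against 8.29% of genes. TDGF1 was missed by its listed symbol. Under its current symbol, CRIPTO, it was also above background in all lines (mean log2 13.07, SD 0.10). The summed intensity of 10 fibroblast markers was 1613, 1226 and 1186 units. Their probes are named for human genes, and whether they read RNA of the mouse feeder cells was not tested. Most of each sum came from THY1 (824, 851 and 752 units, log2 SD 0.09), named after its values were seen, so the sums say little about the other markers. Which cells gave the THY1 signal was not tested, so the sums do not measure fibroblast content. Of the 10 markers, 8 were above background in some line, and 6 of these 8 differed at least 2-fold between lines, against 8.29% of genes. COL1A1 (43.2, 22.0 and 18.6 units), COL1A2 (582, 229 and 310.3 units) and TWIST1 (45.4, 24.5 and 9.67 units) were highest in ES01, as BMI1 was. LUM was highest in BG03, and DCN and LOX were lowest in BG03. COL3A1 and POSTN (the second named after its values were seen) stayed below background on every array. Markers of differentiated cells summed to 669, 749 and 753 units. Of these 12 markers, 5 were above background, and 4 of the 5 differed at least 2-fold, against 8.29% of genes. AFP was lowest in H9 (383, 322 and 148 units). TTR (21.0, 12.8 and 81.5 units), APOA1 (147, 287 and 309 units) and APOA2 (46.9, 70.0 and 134 units) were highest in H9, as CBX7 was. The part of these cell types in the differences of BMI1 and CBX7 was not tested.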

How the data were processed

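Each of 47293 probes has 1 intensity per array in the table the authors deposited, on a linear scale. Of these intensities, 26.3%, 32.8% and 33.8% lie below 0 in ES01, BG03 and H9, so background had been subtracted; which software made them, and whether arrays were scaled, is not given in the sources. The bead files could not be tied to genes and were not used. Platform annotation names 18468 probes, 18451 of them found by gene ID in RefSeq (GRCh38.p14), which gave current symbols; 28825 are unnamed here.

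Quantile normalization (limma 3.58.1, R 4.3.3) took in all probes except 4 bacterial controls. For 1614 genes with several probes the brightest was used. Values under background were set to their array's threshold before log2, and genes above background in at least 1 line were compared. With 1 array per line no test was run. Named genes were the members, the first 4 measured genes of each list, those differing 2-fold, and the nearest patterns. The few others were named after their values were seen. The members and lists were chosen with earlier results of these data known. A planned comparison of protein sequences was not run. The normalization and the fold call were tested on simulated data in which only probes brighter than those of BMI1, EZH1 and CBX7 changed. That test did not cover the background threshold, the choice of probe or dim genes. Python 3.11.15, numpy 2.4.6, pandas 2.3.3 and matplotlib 3.10.9 served for counts and figures. The number of arrays limits the precision.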

Additional observations from a re-analysis of the deposited data

How the results depend on the processing

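The alternatives changed how arrays were scaled, which probes and percentile set the background, how probes of a gene were joined, the floor, the filter, the fold and which lines entered. The count of members above background in all lines was 8 in each of them except the 99th percentile background, which gave 6. CBX7 lay close to the 2-fold threshold: between ES01 and H9, and between any 2 lines, 0 members differed 2-fold with the deposited values unscaled (log2 difference -0.99) and with the 99th percentile background (-0.80), and 0 without BG03 (-0.99). Over all its alternatives the difference ran between -1.32 and -0.80. The count between any 2 lines was also 0 without H9 or without ES01, which removes that pair. At 1.5-fold it was 2, as it was for ES01 over BG03 and ES01 over H9. Of the target genes, 7 were above background in the remaining lines without ES01, and 4 or 5 without either other line. Of 195 recomputed member differences, 13 changed sign, 8 of them under same-median scaling (for ES01 over BG03, EZH2 -0.14, EZH1 -0.22, SUZ12 -0.23 and JARID2 -0.11), and none of CBX7 or BMI1 did. SUZ12 and PHC1 changed sign between BG03 and H9 under all 3 other scalings. The members' median log2 SD ran between 0.07 (without ES01) and 0.21 (without BG03). The isoform probe of EZH2, an alternative chosen after seeing the data, turned ES01 over BG03 to -0.17. No paired analysis was possible because the lines form 1 group. Dimness limits CBX7, EZH1 and CBX2, whose signals lie near or under the background probes.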
